A study of Bos taurus with 2 samples.

Results

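Small RNA sequencing of milk commonly ranks a group of miRNAs high that includes miR-21, miR-22, miR-151, miR-181a, miR-182, miR-183, miR-191, miR-375 and miR-423. The bovine array examined here carried 13 entries under these 9 names, with or without the endings -5p, -3p or *, out of 670 bovine miRNAs (bta-miR-151*, bta-miR-375 and bta-miR-423-5p among them; the prefix bta- is left out from here on). They were picked out by name, but the names were chosen with earlier results of these data known. They were read by 33 of the array's 1465 probes. Each was asked for on 2 arrays: 1 for the pellet of cow milk whey, named exosome in the labels after the small vesicles that cells shed, and 1 for the supernatant left above that pellet. The milk was raw Holstein milk used for trial manufacturing in the submitters' laboratory. The labels give no treatment, genotype or animal age. Whey was spun at 10000 g for 90 min at 4 °C, a force lower than the word ultracentrifugation in the labels usually stands for, and the pellet was washed. RNA of 3 milk samples was mixed in equal parts for each fraction, so that a fraction is 1 pool on 1 array. No difference below has a replicate check, no p-value is given, and each SD is between spots of 1 array and covers technical spread only.

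A miRNA gene is transcribed as a hairpin, and either of its arms can be loaded into an Argonaute protein as the mature miRNA. The 5′ arm and the 3′ arm have different sequences and different seeds, the stretch near the 5′ end that selects target messages, so 2 arms of a hairpin are separate regulators. Older names mark the arm thought to be rarer with a star. In milk, miRNAs are carried both in vesicles and in protein complexes outside them. In a bulk extract, fewer vesicles or complexes and less RNA in each cannot be told apart.

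The array reads each miRNA with a ladder of DNA probes that begin at the same base and differ in length. The probes below are the longest of the 4 miRNAs seen on an array, written 5′ to 3′, with the bases that the longest probe has beyond the shortest in capitals. They are shown because the signal changed with those added bases.

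miR-151*: actagactgtgagctcC

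miR-375: tcacgcgagccgaacG

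miR-423-5p: aaagtctcgctctctgC

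miR-423-3p: actgaggggccTCA

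Probe positions come from the array design in HGSC Btau_3.1, where a start or end can be off by 1 base for every member except miR-423-3p and miR-181a. The miR-423-5p probes lie at chr19:21234506-21234521 and the miR-423-3p probes at chr19:21234544-21234557. The miR-151* probes lie at chr14:2275097-2275112 and the miR-151 probes at chr14:2275133-2275148. The miR-375 probes lie at chr2:111347629-111347643. Within each ladder the longer probe reached toward lower coordinates. Probes of this array type start opposite the 3′ end of the miRNA, so these hairpins read toward higher coordinates and the arm at the lower position is the 5′ arm. By that order miR-151* is the 5′ arm and miR-151 the 3′ arm. The same order placed miR-423-5p and miR-22-5p on the 5′ arm, as they are named. In RefSeq's ARS-UCD2.0 annotation, used for names and neighbours only, all 13 entries matched, to 10 miRNA genes, 2 of them for miR-181a. The miR-151 gene overlaps PTK2, which encodes focal adhesion kinase, and the miR-423 gene overlaps NSRP1, which encodes a splicing regulator. The miR-375 gene overlaps no other gene and lies within 10 kb of CRYBA2 and CFAP65. The miR-182 and miR-183 genes lie within 10 kb of each other and of the miR-96 gene.

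Of the 13 miRNAs, the exosome array detected 3, namely miR-151*, miR-375 and miR-423-5p. The supernatant array also detected 3, namely miR-423-3p, miR-375 and miR-423-5p. That made 2 on both arrays, 1 exosome-only, 1 supernatant-only and 9 on neither. A probe counted as detected when the scanner software called 50% or more of its spots well above background, and a miRNA when any of its probes was detected. The members' shares were 23.1% on each array, against 9.85% (exosome) and 12.7% (supernatant) of all 670 miRNAs. Over all miRNAs, 4.48% were on both arrays, 5.37% were exosome-only, 8.21% were supernatant-only and 81.9% were on neither. With so few members these shares are descriptions, and no test was run.

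**Figure D1:**
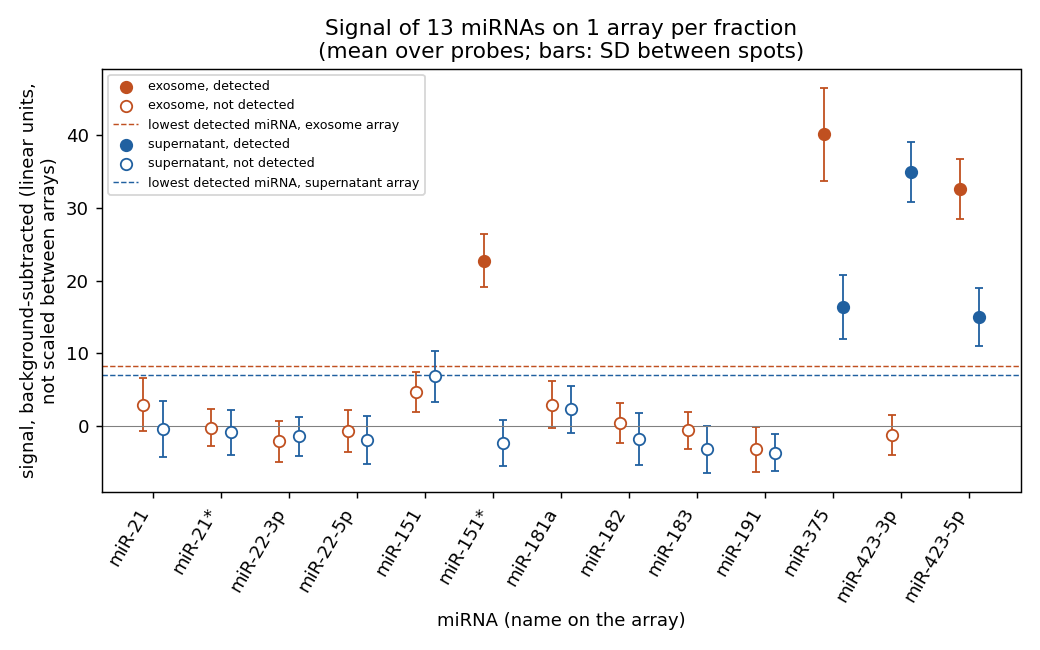
Signal of each of the 13 miRNAs (x axis) on the exosome array (orange) and the supernatant array (blue), as background-subtracted brightness in linear units before scaling (y axis). Points are means over probes, bars are SDs between spots, filled points are detected, and dashed lines mark the lowest signal of a detected miRNA, 8.21 and 7.04. Only miR-151*, miR-375, miR-423-5p and miR-423-3p stand above these lines.

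The 2 arrays differed in overall brightness, which touches every difference below. The software called 7.71% of exosome spots and 11.8% of supernatant spots for miRNAs well above background, and it flagged 0 as saturated. Over the 53 probes that both arrays detected, the 75th percentile of signal was 473 and 15030, and dividing by it adds 4.99 to each log2 difference. Log2 differences, exosome minus supernatant, were 1.80 and 1.38 for the RNAs spiked in before labelling (dmr_285 and dmr_31a), and -0.059 and -0.10 for those spiked in at hybridisation (dmr_3 and dmr_6). Spots of dmr_285 spread widely, at 237 ± 142 and 68.4 ± 41.0, as did those of dmr_3, at 5886 ± 3386 and 6130 ± 3441. Those of dmr_31a (116 ± 18.2 and 44.5 ± 6.54) and dmr_6 (1479 ± 385 and 1587 ± 431) spread less. Because of this gap, values are given before scaling first and the scaled ones beside them.

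miR-423 gave a different answer for each arm. miR-423-5p was detected on both arrays and was brighter on the exosome array before scaling. miR-423-3p was detected on the supernatant array only, by all 4 of its probes, and averaged below 0 on the exosome array with all 4.

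The 17-base probe of miR-423-5p read 54.5 ± 4.82 on the exosome array (30 spots, lowest 43.8, median 54.6, highest 64.8). On the supernatant array it read 25.1 ± 3.97 (29 spots, lowest 14.9, median 25.7, highest 33.4). Before scaling, the spots of the 2 arrays did not overlap in brightness, and the exosome spots were the brighter. How many of all probes separate in this way was not counted, so nothing is read from it. The 16-base probe, which lacks only the last C, read 10.6 ± 3.28 and 4.97 ± 4.04, with 1 of 30 and 0 of 30 spots well above background. Over both probes miR-423-5p read 32.6 ± 4.12 and 15.0 ± 4.00, a log2 difference, exosome minus supernatant, of 1.12 before scaling (SD between spots 0.43). It was 6.10 after scaling and -0.47 when scaled to the labelling controls.

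The miR-423-3p probes of 11, 12, 13 and 14 bases read 51.7 ± 1.75, 31.3 ± 4.38, 30.7 ± 3.62 and 26.0 ± 5.58 on the supernatant array, over 12, 15, 15 and 15 spots. The dimmest of these spots read 15.6. On the exosome array the same probes read -0.57 ± 2.66, -1.67 ± 2.25, -2.15 ± 3.35 and -0.37 ± 2.65, and the brightest spot read 4.91. No spot of miR-423-3p was well above background there, so its exosome level was replaced by a floor, the lowest signal of any detected miRNA on that array (8.21). The floor is nominal, since an undetected miRNA can lie above it, as let-7i did there at 10.9. Each bound below rests on such a floor. Against it miR-423-3p, at 34.9 ± 4.08 over its probes, was at least 4.25-fold higher on the supernatant array before scaling. It was at least 12.8-fold higher when scaled to the labelling controls, and had no bound after scaling to the 75th percentile.

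The gap between the arms does not depend on a scaling that multiplies all values of an array by 1 number, since such a factor cancels. The log2 difference of miR-423-5p lay above that of miR-423-3p by at least 3.20, or 9.21-fold, with an SD between spots of 0.46. This comparison was chosen after the values were seen. Across the 14 settings that gave a value the gap stayed above 0, but those that only multiply an array by 1 number gave 3.20 by construction. Settings with odd spots, even spots or outlier spots kept reused the same spots. The lowest gap was 0.66 with normexp background correction, whose added offset of 50 exceeded both arms' supernatant signals. The highest was 4.52 with quantile normalization.

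**Figure D2:**
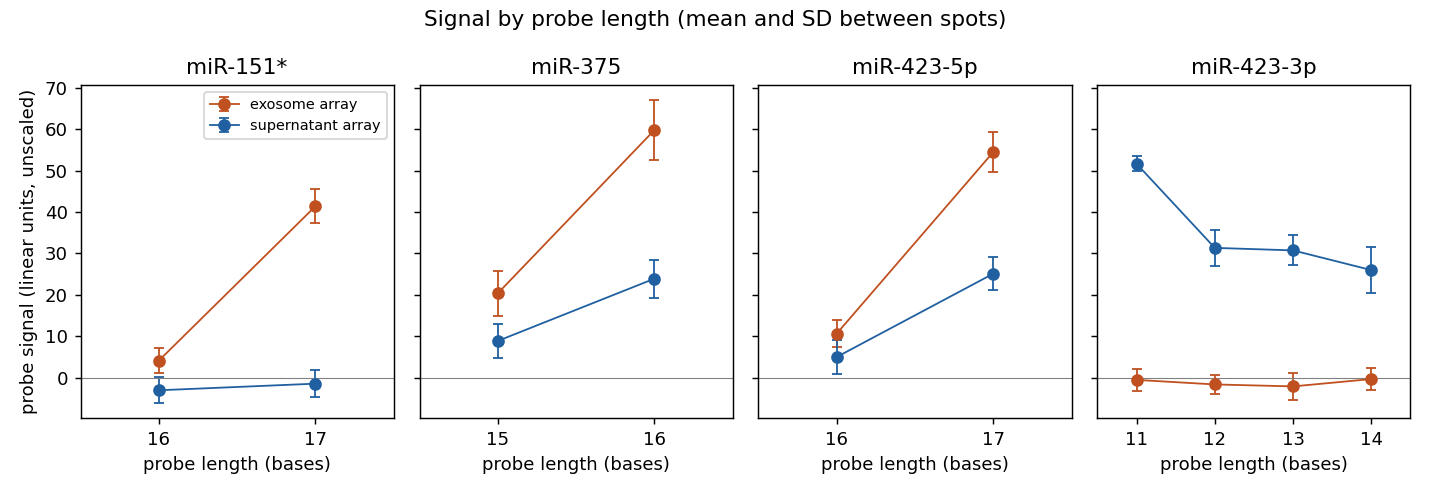
Probe signal in linear units before scaling (y axis) against probe length in bases (x axis) for the 4 detected miRNAs, with the exosome array in orange and the supernatant array in blue. Points are means and bars SDs between spots. The longer probe is the brighter for miR-151*, miR-375 and miR-423-5p wherever they were detected, and falls from 51.7 to 26.0 for miR-423-3p on the supernatant array.

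The ladder of miR-423-3p also ran the other way from those of the other detected members. Its longest probe read 0.50 times its shortest on the supernatant array. The longest probe of miR-375 read 2.94 times its shortest on the exosome array, where both were detected. For miR-423-5p on both arrays, miR-375 on the supernatant array and miR-151* on the exosome array, the longest probe was detected and the shortest was not, so these ladders have a direction and no fold. Over all detected miRNAs, the shortest probe outshone the longest in 3 of 66 exosome cases (4.55%) and in 35 of 85 supernatant cases (41.2%). The direction seen for miR-423-3p was thus common on the supernatant array and rare on the exosome array.

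Probe length moved with the arms' calls. miR-423-3p is among 41 miRNAs whose shortest probe has 11 bases or fewer, of which the supernatant array detected 28 (68.3%) and the exosome array 13 (31.7%). miR-423-5p is among 343 whose shortest probe has 16 bases or more, of which 12 (3.50%) and 33 (9.62%) were detected on the same arrays. The GC content of the longest probes was 64.3% for miR-423-3p and 52.9% for miR-423-5p. A run of 9 bases in the miR-423-3p probe also occurs in a probe of miR-665. miR-665 was likewise detected on the supernatant array only, at 24.4 ± 4.39 against -0.75 ± 2.86 on the exosome array. The part of probe length, base composition or shared bases in the miR-423-3p signal was not tested.

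**Figure D3:**
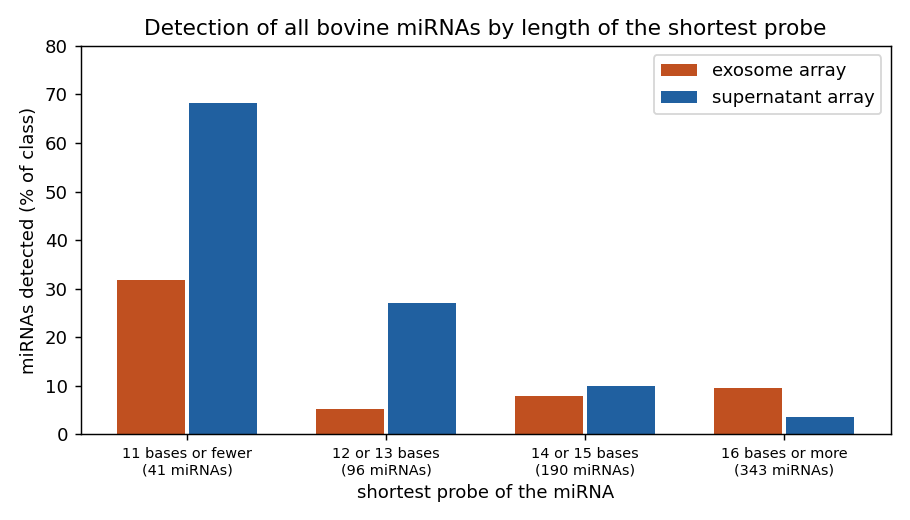
Percent of all bovine miRNAs detected (y axis, from 0) on the exosome array (orange) and the supernatant array (blue), by the length of the shortest probe of each miRNA (x axis, with the number of miRNAs). The length classes were set after the values were seen. Detection on the supernatant array falls from 68.3% to 3.50% from the shortest to the longest class.

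miR-375, known from pancreatic islets and from secretory epithelia, was detected on both arrays. Its 16-base probe read 59.8 ± 7.25 on the exosome array (30 spots, lowest 45.6, median 59.9, highest 76.2). On the supernatant array it read 23.9 ± 4.63 (29 spots, lowest 15.7, median 23.1, highest 35.6). All exosome spots were brighter than all supernatant spots before scaling, which again was not counted over all probes. The 15-base probe, without the last G, read 20.4 ± 5.45 and 8.85 ± 4.11, with 23 of 30 and 0 of 30 spots well above background. Its supernatant spots were nevertheless positive and significantly different from background, a weaker call of the software, in 28 of 30.

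Over both probes miR-375 read 40.1 ± 6.42 and 16.4 ± 4.38, a log2 difference of 1.29 before scaling (SD between spots 0.45), 6.28 after it and -0.30 with the labelling controls. miR-375 and miR-423-5p differed from each other by 0.18 on this log2 scale, less than the SD of 0.62 between spots. That SD is the spread of single spots and does not give the precision of the means. Among the 30 miRNAs detected on both arrays they held places 4 and 5 from the exosome end. The next above was miR-200c at 2.94 and the next below miR-141 at 0.74, both before scaling, and both are epithelial miRNAs. The median of the 30 was -3.69 before scaling and 1.30 after. At least 2-fold higher on the exosome array were 16.7% of the 30 before scaling and 53.3% after, and both members were among them each time.

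**Figure D4:**
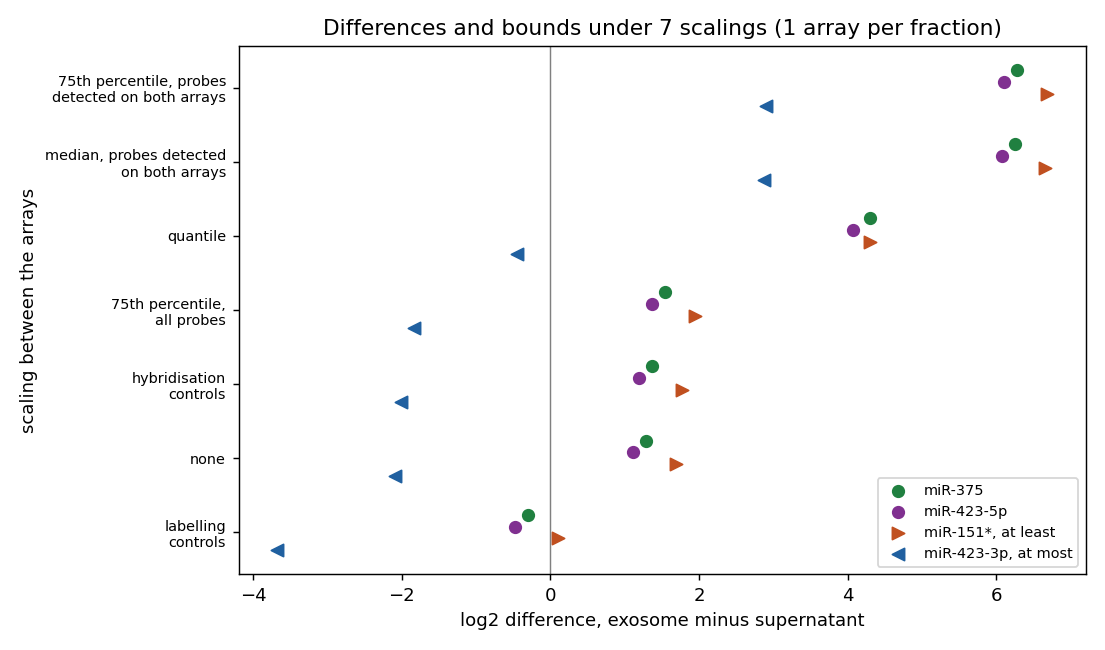
Log2 difference, exosome minus supernatant (x axis), of miR-375 and miR-423-5p as points, under 7 scalings between the arrays (y axis). Triangles are nominal bounds, lower for miR-151* (right-pointing) and upper for miR-423-3p (left-pointing). miR-375 and miR-423-5p stay together from about 6.28 and 6.10 at the top to -0.30 and -0.47 with the labelling controls, and miR-423-3p lies to their left in each row.

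miR-151* was detected on the exosome array only, and by 1 of its 2 probes. The miR-151 hairpin lies in a gene of cell adhesion, and its 5′ arm has been linked to cell migration. The 17-base probe read 41.4 ± 4.14 on the exosome array (30 spots, lowest 32.2, median 42.5, highest 48.3) and -1.48 ± 3.27 on the supernatant array (30 spots, lowest -9.29, median -1.28, highest 6.01). All exosome spots were well above background, and no supernatant spot was. The 16-base probe, which lacks only the last C, read 4.11 ± 2.95 and -3.08 ± 3.097, with 0 of 28 and 0 of 29 spots well above background. No fold is given between the probes, since the shorter one was not detected. Over both probes miR-151* read 22.8 ± 3.59 against -2.28 ± 3.18. Taken against the lowest detected signal of the supernatant array, it was at least 3.23-fold higher in exosome before scaling and at least 103-fold after scaling. With the labelling controls it was at least 1.08-fold higher, a log2 of 0.11, which is less than the SD of 0.23 between single spots.

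The opposite arm, miR-151, was not called on either array but was not at zero. In exosome its 17-base probe read 7.84 ± 2.89 and in supernatant 10.73 ± 3.52, with 29 of 30 spots on each positive and significantly different from background, and 0 and 1 of 30 well above it. Negative control spots read 4.67 ± 3.24 and 3.71 ± 3.02. The exosome and supernatant spots of this probe overlapped, from 0.84 to 13.9 and from 3.66 to 20.9. The star name, given to the arm thought rarer, thus belonged here to the one arm of this hairpin that was called.

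miR-151* shares most of its probe with miR-28. The lines below show the longest probe of each, 5′ to 3′, with the run of 15 bases they have in common in capitals.

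miR-151*: acTAGACTGTGAGCTCC

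miR-28: ctcaaTAGACTGTGAGCTCC

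The miR-28 probe of 20 bases read 2.49 ± 3.49 on the exosome array with 0 of 29 spots well above background, and -0.86 ± 3.04 on the supernatant array with 0 of 28. miR-28 was thus detected on neither array. The longest run that a miR-375 probe shared with another miRNA was 9 bases (miR-2284g), and that of miR-423-5p 8 bases (miR-2308); neither of those miRNAs was detected on either array.

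The 9 entries seen on neither array include names often near the top of milk sequencing. They were miR-21, miR-21*, miR-22-3p, miR-22-5p, miR-151, miR-181a, miR-182, miR-183 and miR-191. In exosome their miRNA signals ranged from -3.19 (miR-191) to 4.73 (miR-151), and in supernatant from -3.67 (miR-191) to 6.87 (miR-151). Each of these 18 values lay below the lowest signal of a detected miRNA on its array, so they were not detectable at this brightness, which does not show that the miRNAs were absent.

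miR-21, a miRNA tied to growth and raised in many tumours, came nearest on the exosome array after miR-151 and miR-181a. Its probes of 17, 18, 19 and 20 bases read -0.55 ± 3.32, 2.54 ± 3.04, 3.77 ± 4.38 and 5.98 ± 3.72, each over 15 spots. The longest, agtcaacatcagtctgaTAA (capitals again mark the added bases), had 10 of 15 spots positive and significantly different from background, and 0 of 15 well above it. On the supernatant array it read 0.37 ± 4.17, with 3 of 15 positive. Its other arm, miR-21*, read -0.24 ± 2.55 and -0.84 ± 3.09.

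miR-181a, which tunes antigen receptor signalling in T cells, read 5.87 ± 3.41 in exosome and 4.63 ± 2.80 in supernatant with its 15-base probe, and 21 and 17 of 29 spots were positive. The 2 arrays overlapped there, and the 14-base probe read 0.050 ± 3.03 and 0.019 ± 3.60. A run of 13 bases in the longer probe also occurs in a miR-181c probe, and miR-181c read -0.999 ± 3.15 and -1.61 ± 3.07.

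miR-182 and miR-183, which come from a cluster active in sensory cells and also expressed in epithelia, stayed near the baseline. The 19-base miR-182 probe read 2.35 ± 2.51 in exosome and -1.80 ± 3.88 in supernatant. The 18-base miR-183 probe read -0.57 ± 2.27 and -3.21 ± 3.38. miR-22-3p read -2.12 ± 2.80 and -1.42 ± 2.72 over its probes, and miR-22-5p read -0.63 ± 2.88 and -1.95 ± 3.28. miR-191 was lowest on both arrays, at -3.19 ± 3.07 and -3.67 ± 2.52, and 1 of its 60 exosome spots was positive and significantly different from background.

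With the weaker call in place of well above background, 6 members passed in exosome and 5 in supernatant, 4 of them in both. The additions were miR-21 on the exosome array and miR-151 and miR-181a on both. Under that rule 26.3% of all miRNAs passed on the exosome array, 27% on the supernatant array and 18.4% on both. miR-21*, both arms of miR-22, miR-182, miR-183 and miR-191 passed on neither array under either rule. Most of all miRNAs on the array also passed on neither under the weaker rule, so nothing is read from this.

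Other miRNAs common in milk sequencing were counted from a list chosen with earlier results of these data known, so the counts below are descriptions. The list holds none of the 13 members. Of its 18 miRNAs on the array, the exosome array detected 17 and the supernatant array 6, all 6 of them being on both. Over all miRNAs the shares were 9.85% (exosome) and 12.7% (supernatant). The brightest on the exosome array were let-7b at 828 ± 47.6, let-7a at 385 ± 23.9 and miR-200c at 343 ± 24.5. These brightnesses are not an order of abundance, since probes differ in how they bind. Of 7 close relatives and gene neighbours of the members (miR-28, miR-96, miR-181b, miR-181c, miR-181d, miR-425-3p and miR-425-5p), the exosome array detected 0 and the supernatant array 1, beside 9.85% and 12.7% of all miRNAs, so that nothing is read from this count. That 1 was miR-425-3p, whose gene lies within 10 kb of the miR-191 gene, at 79.6 ± 5.03 against 7.66 ± 3.20 on the exosome array.

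Marker miRNAs of several cell types were counted on both arrays. Of 5 mammary epithelial markers, the exosome array detected 4 and the supernatant array 2, beside 9.85% and 12.7% of all miRNAs. Their summed signals were 768 and 231. The 4 (miR-200a, miR-200b, miR-200c and miR-141) were already counted among the 18 milk miRNAs above, so this is not a separate count. miR-429, the remaining marker, was detected on neither array. Of 5 leukocyte, 3 erythroid and 4 muscle markers, 0 were detected on the exosome array and 1, 1 and 2 on the supernatant array, beside 9.85% and 12.7% of all miRNAs. Neither array detected the other 4, 2 and 2 markers. Those seen on the supernatant array were miR-223 at 19.3 ± 4.23, miR-486 at 34.1 ± 6.20, miR-133a at 78.9 ± 4.75 and miR-133b at 74.8 ± 5.42. Summed signals of the leukocyte, erythroid and muscle lists were 2.35, -2.10 and 5.31 in exosome, against 15.98, 33.4 and 158 in supernatant. The 1 liver, 2 neuron and 3 endothelial or mesenchymal markers on the array were detected on neither. Over all miRNAs 81.9% were on neither array, so nothing is read from these counts. The part of these cell types in the miR-423-3p or miR-151* signals was not tested.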

How the data were processed

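Whey pellet (exosome) and supernatant RNA, 40 ng each, pooled from 3 milk samples, was labelled with Cy3 and read on 1-colour Agilent miRNA arrays, 1 per fraction, per the labels' protocols. Spots were extracted by the authors with Agilent Feature Extraction 10.7.3.1, per the submitters' processing notes. The deposited scanner values are intensities in linear units, background-subtracted and not scaled between arrays. The deposited value table holds log2 values: the software's total signal per miRNA over 0.1, matched within 6.23e-06, with a column median of 0 on both arrays.

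Outlier spots were left out, spots averaged per probe and probes averaged per miRNA on the linear scale. Values were divided by the 75th percentile over probes seen on both arrays before log2 was taken. A miRNA detected on 1 array has a nominal bound. This is its bright signal over the other array's lowest detected signal, or over its own dim signal where that was higher. SDs of a miRNA are root mean squares over its probes. The array number limits precision. Names follow the array design. All members of the rule are named. The members and lists were chosen with earlier results of these data known. The listed names miR-92a, miR-124b and miR-199a matched no array entry. Averaging, detection and unscaled log2 differences were run on simulated data, with equal probes per miRNA and signals mostly above those of the members. Scaling, bounds and the gap between arms were not part of that run. Alternatives covered detection, scaling, background, probe summary, signal and spots. Normexp came from limma 3.58.1 in R 4.3.3, and all else from pandas 2.3.3 and numpy 2.4.6 in Python 3.11.15.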

Additional observations from a re-analysis of the deposited data

How the results depend on the processing

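The median log2 difference of miR-375 and miR-423-5p, 6.19 after scaling, was 1.20 without scaling, 1.46 with the 75th percentile over all probes, 4.19 with quantile normalization, 1.28 with hybridisation controls, 4.84 with normexp, 6.63 with the software's total signal and 1.43 in the value table. It turned to -0.38 with the labelling controls, where miR-375 was -0.30 and miR-423-5p -0.47. The gap between the miR-423 arms, at least 3.20, was 4.52 with quantile normalization, 0.66 with normexp and 4.48 with both the software's total signal and the value table; these settings for the gap were added after the data were seen. With spots positive and significant, 6, 5 and 4 members were detected on the exosome array, the supernatant array and both. With every probe required, these were 1, 1 and 0 (miR-375 on the exosome array and miR-423-3p on the supernatant array). Counts of members were unchanged with the software's gene-level flag, outlier spots kept, and odd or even spots. The gene-level flag called 79 and 91 of all 670 miRNAs on the exosome and supernatant arrays. Signals toward the lowest detected value limit some calls, such as those of miR-375 and miR-423-5p on the supernatant array (places 81 and 82 of 85). No paired analysis was possible because each fraction had 1 array.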

Other observations

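In the order of brightness among detected miRNAs, miR-375 held place 27 of 66 on the exosome array and 81 of 85 on the supernatant array, and miR-423-5p held places 34 and 82. miR-151* held place 47 on the exosome array, between miR-2374 and miR-30f, and miR-423-3p place 61 on the supernatant array, between miR-664 and miR-2302. These places order brightness and not abundance, since probes differ in how they bind.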
